A study of Mus musculus with 6 samples.

Results

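The genes described here encode the subunits of voltage-gated calcium and sodium channels. They were taken as the entries of the count tables whose symbol begins with Cacna1, Cacna2d, Cacnb, Cacng, or with Scn, a number and the letter a or b. The rule found 40 of the 23282 entries, of which 20 encode pore-forming subunits and 20 auxiliary subunits. RNA came from 1 forebrain hemisphere, without olfactory bulb and cerebellum, of male C57BL/6J mice aged 8 to 10 weeks. In the water avoidance stress (WAS) group, 3 mice stood for 1 h on a small platform level with surrounding water, and 3 control mice spent 1 h on the same platform in a container without water. Both groups were thus moved to a platform, and the comparison concerns the water around it. Each mouse gave 1 QuantSeq library, in which reads come from the 3′ ends of polyadenylated RNA, so that counts do not grow with transcript length and the isoforms of a subunit are not told apart.

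Voltage-gated channels open when the membrane is depolarised. The pore-forming α subunit of a calcium or sodium channel holds the voltage sensors and the ion path in a single chain. Sodium channels carry the upstroke of the action potential, and calcium channels couple depolarisation to transmitter release, dendritic calcium signals and gene transcription. Auxiliary subunits (α2δ, β and γ of calcium channels, β of sodium channels) govern trafficking, gating and placement of the pore, and several γ subunits serve in the brain mainly as partners of AMPA-type glutamate receptors.

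The regions around the gene starts were examined because some subunit genes are neighbours and some were lower together. RefSeq start windows (GRCm38.p6, 250 bases before to 50 after an annotated start) were found for 30 of the 40 genes, with 41 windows in all. The windows below belong to the sodium channel β subunit genes Scn2b and Scn4b, which lie side by side yet behaved differently among the libraries, and to Cacnb3 and Scn2a1, which were both lower in the WAS libraries. Capitals mark the GC box GGGCGG, the CCAAT box CCAAT and the TATA box TATAAA on either strand.
Scn2b, chr9:45117626-45117925, plus strand: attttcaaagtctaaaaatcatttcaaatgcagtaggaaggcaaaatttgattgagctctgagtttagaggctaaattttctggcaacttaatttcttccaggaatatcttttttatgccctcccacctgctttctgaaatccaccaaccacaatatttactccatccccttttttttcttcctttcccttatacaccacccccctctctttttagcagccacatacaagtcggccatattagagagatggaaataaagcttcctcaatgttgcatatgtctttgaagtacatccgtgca
Scn4b, chr9:45138374-45138673, plus strand: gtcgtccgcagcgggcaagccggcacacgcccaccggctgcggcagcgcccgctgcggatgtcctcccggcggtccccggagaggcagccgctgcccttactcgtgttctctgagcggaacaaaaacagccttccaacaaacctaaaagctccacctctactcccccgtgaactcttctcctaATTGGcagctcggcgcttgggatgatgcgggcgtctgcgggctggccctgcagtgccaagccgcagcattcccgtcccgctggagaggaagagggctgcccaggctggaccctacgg
Cacnb3, chr15:98634517-98634816, plus strand: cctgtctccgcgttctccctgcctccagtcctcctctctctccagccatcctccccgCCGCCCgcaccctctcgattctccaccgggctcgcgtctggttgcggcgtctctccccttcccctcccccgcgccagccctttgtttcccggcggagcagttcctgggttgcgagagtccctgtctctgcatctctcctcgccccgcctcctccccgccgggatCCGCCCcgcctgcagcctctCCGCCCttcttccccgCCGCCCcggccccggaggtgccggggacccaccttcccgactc
Scn2a1, chr2:65668436-65668735, plus strand: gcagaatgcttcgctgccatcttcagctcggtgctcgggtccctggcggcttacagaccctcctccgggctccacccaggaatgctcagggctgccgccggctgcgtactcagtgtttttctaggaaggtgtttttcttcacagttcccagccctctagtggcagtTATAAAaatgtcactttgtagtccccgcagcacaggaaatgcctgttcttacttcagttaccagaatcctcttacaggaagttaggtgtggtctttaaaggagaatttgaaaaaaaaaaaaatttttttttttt
The Scn2b window had a GC content of 38.3% with 2 CpG dinucleotides and none of the 3 motifs. The Scn4b window had 66.3% GC, 26 CpG dinucleotides and 1 CCAAT box. Cacnb3 had a further window at 98632078 to 98632377 with 1 GC box and 1 CCAAT box, and the one printed held 4 GC boxes, 72.0% GC and 29 CpG dinucleotides. The Scn2a1 window printed had 47.7% GC and 1 TATA box, and a further one at 65620519 to 65620818 had 33.0% GC and none of the 3. Over all 32851 windows of the RefSeq table, the GC box was found in 35.7%, the CCAAT box in 37.4% and the TATA box in 13.6%. Of the 41 subunit windows, 16 held the GC box, 10 the CCAAT box and 2 the TATA box (those of Cacna1d and Scn2a1). The cyclic AMP response element TGACGTCA was in 0 of the 41 windows (1.79% of all windows), the glucocorticoid response element, a palindrome with a gap of any letters, in 0 (0.0487%), the E-box CACGTG in 0 (7.15%) and the AP-1 site TGANTCA in 1 of the 2 Cacng5 windows (7.81%). The core TGACG, which the cyclic AMP response element contains, was in 6 windows, among them that of Cacna1i (20.8% of all windows). The windows of Cacng2 and Cacng3 held none of these motifs.

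Total counts ran from 9248520 to 10502029 per library, and 15239 genes were abundant enough to test. Inside the count tables, headings of the WAS libraries begin with WC and those of the control libraries with WS, and nothing in the tables defines these letters. Groups follow the sample labels, and exchanged labels would turn every direction below. WAS replicates 1 and 3 stood apart on regional marker genes. For 10 striatal markers the summed level was 181 and 409 CPM (counts per 1000000 after TMM scaling) in WAS replicates 1 and 3, against 2106 CPM in WAS replicate 2 and 1063 to 1492 CPM in the control libraries. For 10 thalamic markers the sums were 900 and 754 CPM against 380 CPM and 349 to 407 CPM, and for 10 midbrain and hindbrain markers 53.0 and 79.0 CPM against 5.34 CPM and 3.72 to 5.52 CPM. The 10 markers of cortical projection neurons summed to 5205 and 4726 CPM against 6731 CPM and 6713 to 8065 CPM, and most of that sum was Nrgn. Neurod6 (140.0 and 128.5 CPM) and Fezf2 (72.0 and 48.6 CPM) were not low in WAS replicates 1 and 3. They were above WAS replicate 2 (83.2 and 32.4 CPM) and within or above their control ranges. Over all 6 libraries, 9 of the 10 markers had a log2 fold change below 0. The sum over 6 choroid plexus markers, mostly Ttr, was low in WAS replicate 1 (52.2 CPM) and control replicate 2 (16.8 CPM). It lay between 916 and 1241 CPM in the other libraries. Otx2 of that list was not low in WAS replicate 1, at 11.2 CPM. It was at 5.99 and 13.7 CPM in WAS replicates 2 and 3 and at 0.782 to 7.61 CPM in the control libraries. Slc17a7, the vesicular glutamate transporter of cortical neurons, was at 227.6, 256.8 and 225.7 CPM in the WAS replicates and 270.8, 302.1 and 312.6 CPM in the control replicates, so that its groups did not overlap. Its log2 fold change was -0.32 (unadjusted p = 0.00454, adjusted p = 0.514), and its part in the lower channel genes was not tested. Gabra6, which marks cerebellar granule cells, had 1 count in 1 library and 0 in the rest. The sum over 7 hippocampal markers, 329 to 439.5 CPM, came mostly from Neurod2. Of the others, Fibcd1 was at 25.4 and 20.4 CPM in WAS replicates 1 and 3 against 4.40 to 6.67 CPM in the other libraries, and Spink8, Prox1 and, in WAS replicate 1, Lct were also highest there. Wfs1 was highest in WAS replicate 2, and Iyd was under 0.7 CPM throughout. Sums over the remaining marker lists were 945 to 1241 CPM for inhibitory interneurons, 5115 to 7094 CPM for oligodendrocytes, 200.1 to 259 CPM for their precursors, 3378 to 3737 CPM for astrocytes, 248 to 313 CPM for microglia, 139.5 to 161 CPM for endothelium, and 117 to 162 CPM for cerebellum. Of 10 immediate early genes, Fos, Npas4, Jun and Junb were higher with an unadjusted p under 0.05 and Egr1, the most abundant of them, was lower with such a p (log2 fold changes 0.34, 0.49, 0.57, 0.30 and -0.42, with edgeR's adjusted p from 0.477 to 0.67, where 3.85% of all genes were higher and 3.40% lower with an unadjusted p under 0.05). In whole tissue, fewer cells of a type and less RNA per cell cannot be told apart.

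Of the 26 channel subunits at 10 CPM or more, 20 stayed within 1.5-fold across all 6 libraries. The share of all genes at that level that did so was not counted. Of the 40 genes, 32 passed the filter on low counts, 16 of each class. Cacna1i, Scn2a1, Cacnb3, Cacng2 and Cacng3 had an unadjusted p under 0.05, and all of them were lower in the WAS libraries. These 5 genes are 15.6% of the 32 tested, where 7.24% of all genes tested had such a p and 3.40% were lower with such a p. Of the subunits, 0 were higher with such a p (3.85% of all genes). For each of the 5 genes, all WAS libraries lay below all control libraries, which held for 5.55% of all genes tested, and in the opposite direction the groups were apart for Scn7a alone (6.12% of all genes, and 11.7% for both directions together). By edgeR's quasi-likelihood test, 0 subunits passed an adjusted p of 0.05 (0.00% of all genes), the lowest adjusted p being 0.514, and DESeq2 and limma also gave 0. None of the 5 had a fold change of 1.5, a size that 2.49% of all genes reached together with an unadjusted p under 0.05. With total-count scaling 4 of the 5 remained, Cacng2 was lost and Cacng5 was added as higher, while the lower share of all genes with such a p went from 46.9% to 28.9%.

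**Figure D1:**
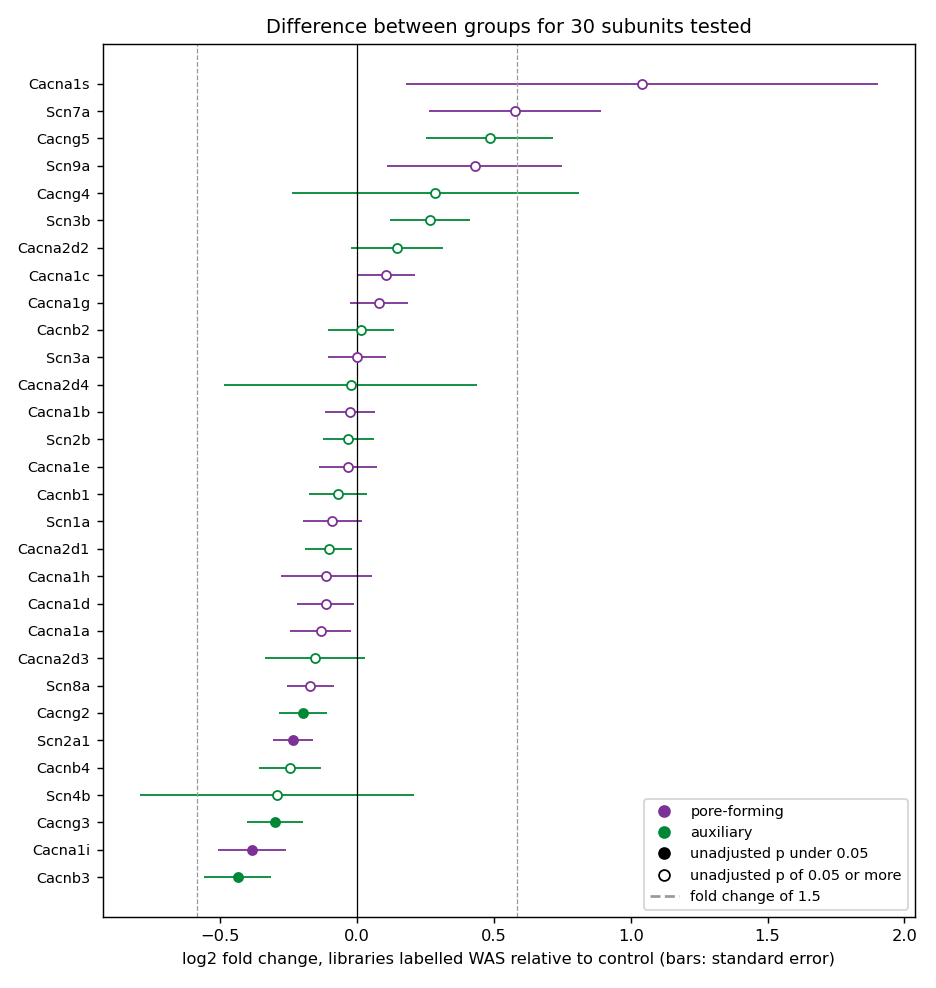
Log2 fold change of the libraries labelled WAS relative to control for 30 of the 32 subunits tested, with the standard error as a bar. Filled points have an unadjusted p under 0.05, colour gives the class, and dashed lines mark a fold change of 1.5. The 5 filled points all lie left of 0, between -0.44 and -0.20.

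The pore-forming and auxiliary classes did not separate. Their median log2 fold changes were -0.029 over 16 pore-forming and -0.059 over 16 auxiliary subunits, against 0.001 over all genes tested, and with total-count scaling the first was 0.008 and the second -0.023. Below 0 were 10 pore-forming and 11 auxiliary subunits, 65.6% of those tested, against 49.8% of all genes. Summed over the 20 pore-forming genes, the level was 2068, 2029 and 1960.1 CPM in WAS replicates 1, 2 and 3 against 2278, 2317 and 2103 CPM in the control replicates. The auxiliary genes summed to 2215, 2619 and 2188 CPM against 2558, 2709.8 and 2489 CPM. The sums of the pore-forming genes did not overlap between groups, and those of the auxiliary genes did, because WAS replicate 2 lay above 2 control libraries. Among the 26 subunits at 10 CPM or more, 20 were below 0 with a median of -0.097, where all 9399 genes at that level had a median of -0.008 and 52.1% below 0. Of the 6 subunits tested at lower levels, 5 were above 0 with a median of 0.503 over the 6, and their standard errors ran from 0.32 to 0.86.

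**Figure D2:**
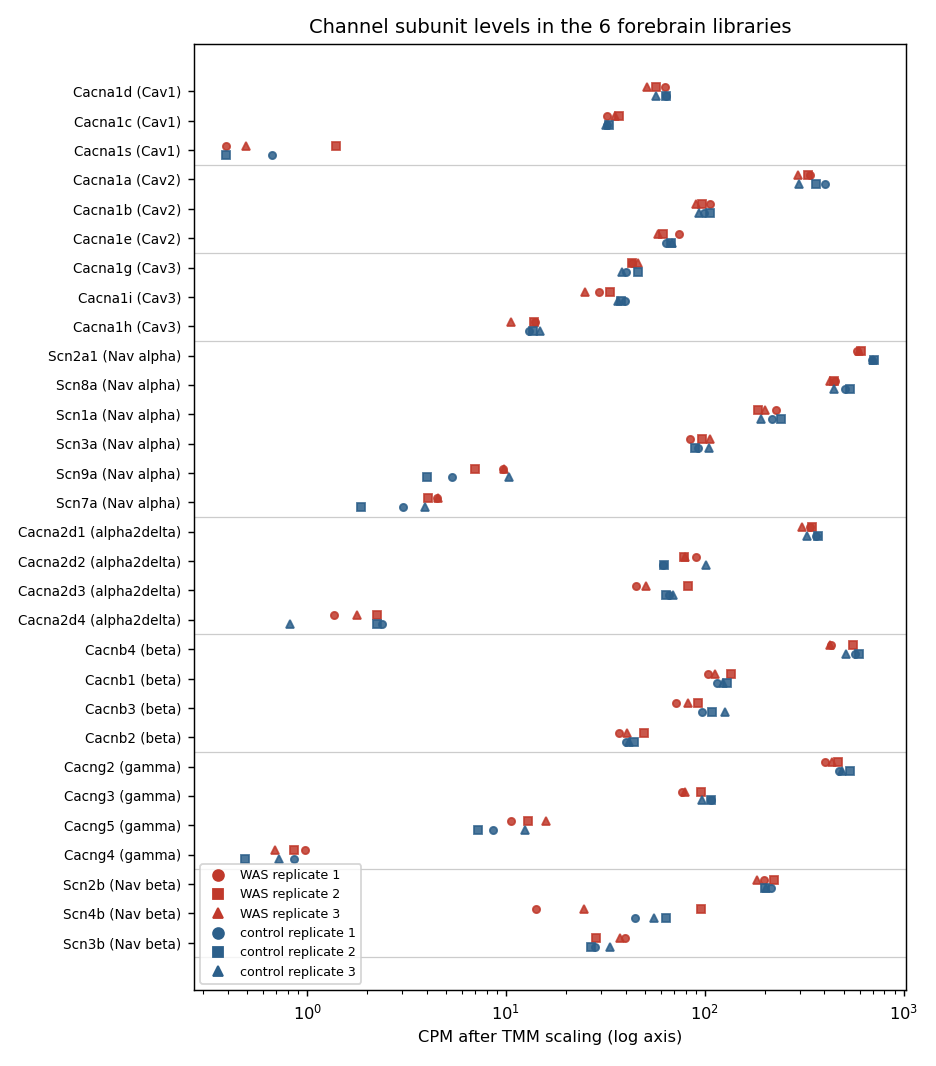
Level of 30 tested subunits in each library in CPM on a log axis, grouped by subfamily, with red marks for WAS, blue for control, and the shape giving the replicate. Cacna1s in control replicate 3 was at 0 and has no mark. Scn2a1 is the most abundant subunit, and Scn4b spreads widely among the WAS libraries.

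Among the pore-forming calcium channel subunits, the T-type channel gene Cacna1i was lower in the WAS libraries and the other 8 tested had no unadjusted p under 0.05. T-type channels open near the resting potential and support burst firing, and Cacna1i encodes Cav3.3. It lies on chromosome 15 (80287238 to 80398279, plus strand, GRCm38). Cacna1i was at 29.4, 33.3 and 24.9 CPM in WAS replicates 1, 2 and 3 and at 39.6, 37.8 and 36.8 CPM in the control replicates, so that the highest WAS library stayed below the lowest control library. The log2 fold change was -0.38 with a standard error of 0.12 (unadjusted p = 0.0103, adjusted p = 0.57), and with any 1 library left out it ran from -0.49 to -0.28 with an unadjusted p of at most 0.0459. The related T-type gene Cacna1g, a gene of thalamic relay neurons, was at 43.0, 43.1 and 45.9 CPM against 40.0, 46.3 and 38.4 CPM, and its groups overlapped. Its log2 fold change was 0.08 (standard error 0.11). For Cacna1h, the remaining T-type gene, the value was -0.11 (standard error 0.17).

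The Cav2 genes encode the presynaptic channels of transmitter release. Cacna1a, the P/Q-type channel, was the most abundant pore-forming calcium channel gene, with 339, 332 and 296 CPM in the WAS replicates and 401, 362 and 296.5 CPM in the control replicates. The lowest control library was level with the lowest WAS library, and the difference was -0.13 on the log2 scale, with a standard error of 0.11 and an adjusted p of 0.878. Without control replicate 3 it was -0.24, with an unadjusted p of 0.0338. Cacna1b, the N-type channel, was at 106.2, 96.4 and 90.6 CPM against 98.8, 106.3 and 93.5 CPM, a difference of -0.03 on the log2 scale (standard error 0.09) whose sign turned with total-count scaling. Cacna1e, the R-type channel, was likewise at -0.03 (standard error 0.11).

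L-type channels carry calcium signals to the nucleus. Cacna1d (Cav1.3) was at 62.9, 56.8 and 51.4 CPM in the WAS replicates against 64.1, 63.9 and 57.1 CPM in the control replicates, and Cacna1c (Cav1.2) at 32.1, 36.9 and 35.3 CPM against 32.3, 32.8 and 32 CPM. Both pairs of groups overlapped, with log2 fold changes of -0.11 and 0.10 (standard errors 0.10 and 0.11), which ran from -0.20 to -0.05 and from 0.06 to 0.15 with 1 library left out. The retinal channel gene Cacna1f had 0 to 4 counts and was not tested. Cacna1s, the skeletal muscle channel, had 13 counts or fewer per library and a log2 fold change of 1.04 with a standard error of 0.86, and 6 skeletal muscle markers summed to 11 to 19.9 CPM.

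Of the sodium channel α subunits, Scn2a1 was lower in the WAS libraries with the smallest standard error of the 5 genes. It is the older symbol of Scn2a and encodes Nav1.2, the channel of the proximal axon initial segment and of unmyelinated axons of excitatory neurons, on chromosome 2 (65620771 to 65767447, plus strand). Its level was 582, 612 and 596 CPM in WAS replicates 1, 2 and 3 (597 ± 15 CPM, SD, n = 3) and 695, 709.9 and 702 CPM in the control replicates (702 ± 7.29 CPM, SD, n = 3). The gap between the groups was wider than the range within either. The log2 fold change was -0.24 with a standard error of 0.07, a level 0.85 times that of control (unadjusted p = 0.00743, adjusted p = 0.539). With any 1 library left out it stayed between -0.25 and -0.22 with an unadjusted p of at most 0.0258, while limma on quantile-normalized values gave an unadjusted p of 0.0863.

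The other forebrain α subunits differed less. Scn8a, which encodes Nav1.6 of the distal initial segment and nodes of Ranvier, was at 454, 445 and 428 CPM in the WAS replicates and 509.6, 536 and 448 CPM in the control replicates, and control replicate 3 lay within the WAS range. Its log2 fold change was -0.17 (standard error 0.09), and without control replicate 3 it was -0.24 with an unadjusted p of 0.018. Scn1a, the Nav1.1 channel of inhibitory interneurons, had a log2 fold change of -0.09 and Scn3a, the channel of the embryonic brain, of 0.00 (standard error 0.11 for each). Scn1a, Scn2a1, Scn3a, Scn7a and Scn9a lie in 1 stretch of chromosome 2, where Scn3a and Scn2a1 are transcribed in opposite directions with 53143 bases between them. Summed over the 10 α genes, the level was 1366, 1353 and 1347 CPM in the WAS replicates and 1525, 1586 and 1466 CPM in the control replicates.

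Scn7a encodes the sodium sensor Nax and is known from glia and sensory organs of body fluid balance. It was at 4.51, 4.06 and 4.55 CPM in the WAS replicates against 3.05, 1.86 and 3.90 CPM in the control replicates, with 46, 38 and 46 counts against 32, 19 and 38. The groups did not overlap, but control replicate 3 was level with WAS replicate 2 in counts, and the log2 fold change of 0.58 had a standard error of 0.32 (unadjusted p = 0.0945, adjusted p = 0.74). It was 0.33 without control replicate 2, and 0.83 with an unadjusted p of 0.0389 without control replicate 3. Scn9a was at 9.70, 6.95 and 9.79 CPM against 5.33, 4.01 and 10.4 CPM, and without control replicate 3 its log2 fold change went from 0.43 to 0.92 (unadjusted p = 0.00815). Scn10a and Scn11a, channels of pain-sensing neurons, had 5 counts or fewer and were not tested.

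**Figure D3:**
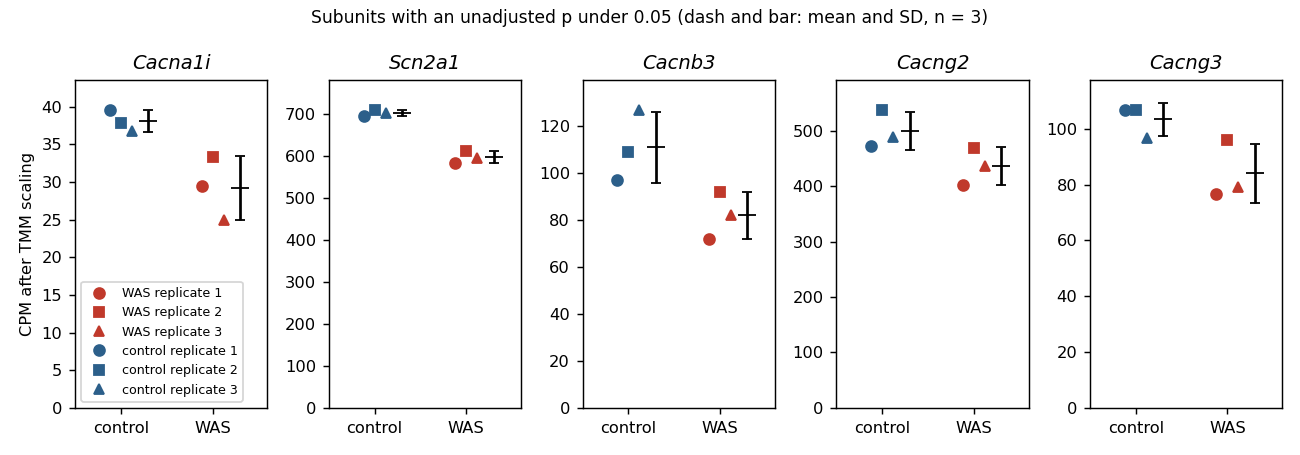
CPM of the 5 subunits with an unadjusted p under 0.05, 1 panel a gene, with blue marks for control and red marks for WAS libraries and the mean and SD beside them. In each panel all WAS marks lie below all control marks, and WAS replicate 2 is the highest WAS mark.

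Among the calcium channel β subunits, cytosolic proteins that bring the pore to the membrane, Cacnb3 was lower in the WAS libraries. It lies on chromosome 15 (98630840 to 98644529, plus strand). Cacnb3 was at 71.8, 92.0 and 82.1 CPM in WAS replicates 1, 2 and 3 and at 97.0, 108.8 and 127 CPM in the control replicates. Its highest WAS library was close to its lowest control library, but the groups did not overlap. The log2 fold change was -0.44 with a standard error of 0.12, or 0.739 times the control level (unadjusted p = 0.00392, adjusted p = 0.514). It ran from -0.53 to -0.33 with 1 library left out, and the unadjusted p stayed at or below 0.0227.
Cacnb4, whose loss causes seizures and ataxia in mice, was the most abundant β gene, at 429.7, 559 and 424 CPM in the WAS replicates against 567, 596 and 512 CPM in the control replicates. WAS replicates 1 and 3 were low and WAS replicate 2 lay among the control libraries. The log2 fold change of -0.25 (standard error 0.11) had an unadjusted p of 0.0518, and without WAS replicate 2 it was -0.39 with an adjusted p of 0.0273. Its last exon overlaps a transcript on the other strand, A430018G15Rik, and the strand setting of the authors' counting is not given in the sources used here. Cacnb1 was at 104.3, 134.9 and 112.6 CPM against 115.5, 129.5 and 124 CPM, or -0.07 on the log2 scale (standard error 0.11). Cacnb2 was at 0.02 (standard error 0.12).

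The γ subunits Cacng2 and Cacng3 encode transmembrane AMPA receptor regulatory proteins (TARPs), which carry AMPA receptors to the synapse. Both were lower in the WAS libraries. Cacng2, the stargazin gene on chromosome 15 (77991748 to 78120028, minus strand), was at 401, 469 and 437 CPM in the WAS replicates and 473, 538 and 488 CPM in the control replicates. Its highest WAS library lay just under its lowest control library, and the log2 fold change of -0.20 (standard error 0.09) had an unadjusted p of 0.0463 and an adjusted p of 0.684. That p was 0.137 without WAS replicate 1, 0.0861 without WAS replicate 3, 0.183 without control replicate 2 and 0.0621 without control replicate 3. It was 0.0929 with total-count scaling and 0.228 with limma. Cacng3, a TARP of the cerebral cortex and hippocampus on chromosome 7 (122670492 to 122769393, plus strand), was at 76.8, 96.1 and 79.3 CPM against 106.9, 106.9 and 96.6 CPM. WAS replicate 2 was nearly level with control replicate 3. On the log2 scale the difference was -0.30, with a standard error of 0.10, an unadjusted p of 0.0141 and an adjusted p of 0.585, and the p rose to 0.0525, 0.0514 and 0.0504 without WAS replicate 3, control replicate 1 and control replicate 2, and to 0.0557 with limma.
Cacng5 moved the other way, at 10.6, 12.9 and 15.9 CPM in the WAS replicates against 8.57, 7.23 and 12.4 CPM in the control replicates, with overlapping groups. Its log2 fold change was 0.48 (standard error 0.23, unadjusted p = 0.0601), and it had an unadjusted p of 0.0249 without WAS replicate 1 and 0.0106 without control replicate 3. Cacng4 had 5 to 10 counts per library.

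For each of the 5 lower genes, WAS replicate 2 was the highest of the 3 WAS libraries. The lowest was WAS replicate 3 for Cacna1i and WAS replicate 1 for the others. The share of all genes with WAS replicate 2 highest was not counted. With WAS replicate 2 as the only WAS library, 0 of the 5 genes had an unadjusted p under 0.05 (5.34% of all genes, with 0.00656% at an adjusted p under 0.05). In that fit, where the lone library was assumed to vary like the control libraries, the log2 fold changes were -0.27 for Cacnb3, -0.20 for Cacna1i, -0.20 for Scn2a1, -0.11 for Cacng3 and -0.10 for Cacng2. WAS replicates 1 and 3 were also the libraries with low sums of striatal and cortical markers and high sums of thalamic and midbrain markers. The part of tissue make-up in these differences was not tested. Without WAS replicate 2, 9 subunits had an unadjusted p under 0.05, where 13.7% of all genes did, and 5 had an adjusted p under 0.05 (Cacnb3, Cacnb4, Cacng3, Cacna2d3 and Scn4b), where 3.22% of all genes did. Without control replicate 3, 12 subunits had an unadjusted p under 0.05, 7 of them lower and 5 higher in the WAS libraries, where 7.23% of all genes had such a p.

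**Figure D4:**
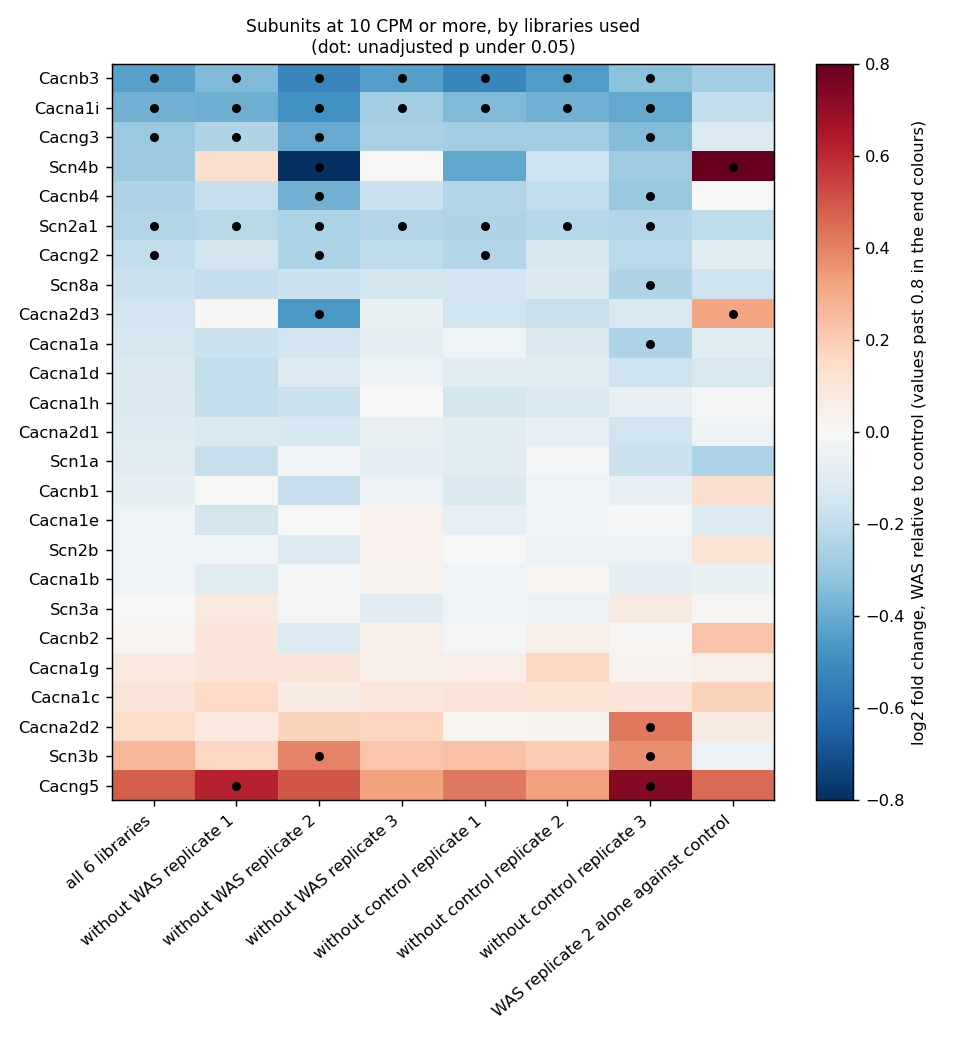
Log2 fold change of 25 subunits at 10 CPM or more, with all 6 libraries, with each library left out, and with WAS replicate 2 as the only WAS library. Blue is lower and red higher in WAS, and a dot marks an unadjusted p under 0.05. Cacnb3, Cacna1i and Scn2a1 keep the dot in all 6 fits that leave out 1 library, and Scn4b and Cacna2d3 change colour with WAS replicate 2.

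The α2δ subunits lie outside the membrane and raise the surface density of the pore, and some of them bind gabapentin. Cacna2d1 was at 336, 346 and 308 CPM in the WAS replicates against 364, 372 and 327 CPM in the control replicates, and Cacna2d2 at 89.8, 78.9 and 79.8 CPM against 61.4, 62.5 and 101.1 CPM. The groups overlapped for both, with log2 fold changes of -0.10 (standard error 0.09) and 0.15 (standard error 0.17). Control replicate 3 decided the value of Cacna2d2, which was 0.42 without it (unadjusted p = 0.00261, adjusted p = 0.468). Cacna2d3, chosen after its values were seen like Scn3b, Scn4b, Scn9a and Cacng5, was at 45.3, 82.7 and 50.9 CPM against 65.8, 63.7 and 69.1 CPM. Its control libraries stayed within 1.08-fold of each other, while the WAS libraries spanned a 1.83-fold range on both sides of them. Over all 6 libraries the log2 fold change was -0.15 (standard error 0.18). It was -0.46 without WAS replicate 2 and 0.32 with that library alone. Cacna2d4 had 8 to 25 counts per library.

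The sodium channel β subunits are single-span proteins that tune gating and cell adhesion, and 2 neighbours among them behaved differently. Scn4b is rich in medium spiny neurons of the striatum and supports resurgent sodium current. Scn2b ends 8324 bases before Scn4b starts on the plus strand of chromosome 9 (45117782 to 45130070 and 45138395 to 45154152). Scn2b was at 199, 224 and 183 CPM in WAS replicates 1, 2 and 3 and at 216, 202 and 202 CPM in the control replicates. Its 6 libraries lay within 1.22-fold of each other, and the groups differed by -0.03 on the log2 scale (standard error 0.09). Scn4b was at 14.2, 95.9 and 24.6 CPM in the WAS replicates and at 44.8, 63.9 and 55.5 CPM in the control replicates. WAS replicate 1 was the lowest and WAS replicate 2 the highest library of all, a 6.75-fold range, so that the log2 fold change of -0.29 had a standard error of 0.50 (adjusted p = 0.951). Without WAS replicate 2 the log2 fold change was -1.496 with an adjusted p of 0.000802, without WAS replicate 1 it was 0.13, and with WAS replicate 2 as the only WAS library it was 0.80 with an adjusted p of 0.151. Over all 6 libraries it was -0.67 with the replicate block (unadjusted p = 0.0564) and -0.74 with limma (unadjusted p = 0.328).
The ratio of Scn4b to Scn2b was 0.0713, 0.428 and 0.134 in the WAS replicates and 0.207, 0.317 and 0.275 in the control replicates. The striatal markers followed the same order within the WAS group. Relative to the control mean, their sum was 0.138, 1.61 and 0.313 in WAS replicates 1, 2 and 3, and Scn4b was at 0.259, 1.75 and 0.449. The part of the share of striatum in Scn4b was not tested. Drd2 and Gpr6 of that list were at 0 or 1 count in every library, while Drd1 had 350 to 3380 counts. The last exon of Scn2b overlaps the noncoding gene Gm10684 on the other strand.
Scn3b was at 39.9, 28.5 and 37.5 CPM against 28.0, 26.7 and 33.5 CPM. It was high in WAS replicates 1 and 3, as were the thalamic markers, and its difference of 0.27 on the log2 scale (standard error 0.15, adjusted p = 0.74) was -0.046 with WAS replicate 2 as the only WAS library. It was 0.17 without WAS replicate 1, 0.40 without WAS replicate 2 (unadjusted p = 0.0108) and 0.37 without control replicate 3 (unadjusted p = 0.0452).

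**Figure D5:**
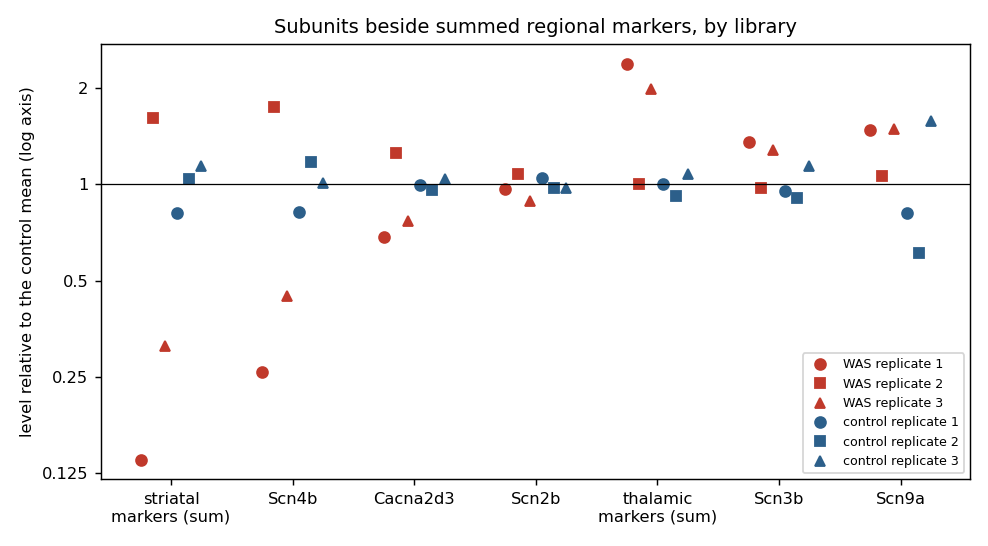
Level of selected subunits and of summed striatal and thalamic markers in each library, relative to the mean of the control libraries, on a log axis. Scn4b follows the order of the striatal markers in the WAS libraries, with WAS replicate 1 lowest and WAS replicate 2 highest, while Scn2b stays near 1.

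The remaining genes were at the limit of detection. Scn4a and Cacng6 had 0 counts in all libraries, which allows a level of up to 0.286 to 0.324 CPM for counting error alone. Cacng8, a TARP known from the hippocampus, had 0 to 2 counts and Cacng7, a further brain TARP, 0 to 4. Cacng1, Cacna1f, Scn10a and Scn11a complete the 8 genes that were not tested, with 13 counts or fewer per library. A low count is not evidence of absence here, because a 3′ count depends on the annotated transcript end. In GENCODE M21 the longest Cacng8 transcript has 43 bases after its stop codon, its last 500 bases have 77.6% GC, and no AATAAA or ATTAAA poly(A) signal lies in its last 50 bases. Such a signal was found for 35 of the 40 subunits and for 72.2% of 21877 protein-coding genes, and Cacng7 had one despite its low counts.

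Partners of the channels were examined beside the subunits. They comprised 38 genes for initial segment scaffolds, fibroblast growth factor homologous factors, calcium sensors, active zone proteins and the leak channel complex, of which 36 were tested. Of these, 5 had an unadjusted p under 0.05 and were lower in the WAS libraries, 0 were higher with such a p (3.40% and 3.85% of all genes), and the median log2 fold change was -0.083 against 0.001 over all genes. Stx1a, which encodes a syntaxin that binds presynaptic calcium channels, was at 154, 187 and 136 CPM in the WAS replicates and 237.1, 237.0 and 220.0 CPM in the control replicates. Its groups were well apart, and they differed by -0.54 on the log2 scale (standard error 0.11, adjusted p = 0.477). Cabp1, a calcium sensor of L-type channels, was at 100.8, 137 and 91.5 CPM against 160.2, 168 and 173 CPM, a log2 fold change of -0.61 (standard error 0.13). Rims1, an active zone scaffold, was at -0.40 and Nedd4l, a ubiquitin ligase of sodium channels, at -0.24 on the same scale (standard errors 0.12 and 0.09). The scaffold of the initial segment Ank3 had no such p, and for Stx1a and Cabp1 too WAS replicate 2 was the highest WAS library. The 8 pan-neuronal markers summed to 5894, 6169 and 5986 CPM in the WAS replicates against 6610.2, 7226 and 6679 CPM in the control replicates. Syt1 and Snap25, the latter also on the list of partners, gave the largest parts of these sums. Of the 8 markers, 6 were below 0 on the log2 scale, while Nefl was at 0.12 and Nefm at 0.03. The part of these markers in the lower values was not tested.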

How the data were processed

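The authors sequenced QuantSeq 3′ libraries, used Bowtie2 for alignment, and Bedtools coverage for counting both unique and multiple alignments. The submitters' processing notes name the build mm10 (GRCm38). The annotation and tool versions are not given in the sources used here. The deposited values were unnormalized read counts per gene symbol, 1 table per mouse, with 44 repeated symbols kept apart. Because multiple alignments were counted, gene copies can share reads, but the last 500 bases of 0 of the 40 subunit transcripts shared 50 bases with another gene in GENCODE M21.

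After TMM scaling, edgeR 4.0.16 (quasi-likelihood test, R 4.3.3) was run on 15239 genes with a mean log2(quantile-normalized count + 1) of at least 2, with Benjamini-Hochberg adjustment over all of them. Standard errors were derived from each log2 fold change and its F statistic. TMM factors lay between 0.9761 and 1.014, and the common biological coefficient of variation was 14%. With 3 mice per group the smallest two-sided p of an exact permutation test is 0.1, so none was used. Counts limit precision at low levels, and the limit for a count of 0 is 3 counts, for counting error only.

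Alternatives were total-count scaling, DESeq2 1.42.0, limma 3.58.1 on quantile-normalized log2 values, 2 other filters, a block for the replicate number, and leaving out 1 library at a time. The fit with WAS replicate 2 alone was chosen after seeing the data. The functions were tested on simulated data. The members, the lists of partners and markers and the tests were chosen with earlier results of these data known. Values are given for subunits with an unadjusted p under 0.05, for the 2 most abundant of each subfamily and for subunits whose groups do not overlap. Others were chosen after their values were seen. Values of some genes are not reported here. Positions are from GENCODE M21, and all 40 symbols matched, Scn2a1 through a RefSeq synonym. Start windows are from RefSeq. The labels number 3 mice per group. Metabolite data of the study were not analysed here.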

Additional observations from a re-analysis of the deposited data

How the results depend on the processing

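With all 6 libraries, 0 genes passed an adjusted p of 0.05, against 22 with DESeq2, 49 with the replicate block, 1 with WAS replicate 2 as the only WAS library and 0 to 491 with 1 library left out (491 without WAS replicate 2). Genes with an unadjusted p under 0.05 numbered 1104, and 623 to 2084 with 1 library left out. Subunits with an adjusted p under 0.05 numbered 0, and 0 to 5 with 1 library left out. Subunits with an unadjusted p under 0.05 numbered 5, against 2 of 32 with limma (Cacna1i and Cacnb3, where 5.7% of all genes had such a p), 2 with WAS replicate 2 as the only WAS library (Cacna2d3 and Scn4b, both higher) and 3 to 12 with 1 library left out (9 without WAS replicate 2, 12 without control replicate 3, of which 5 were higher and where 7.23% of all genes had such a p, 3 without WAS replicate 3 or control replicate 2, where 4.29% and 4.09% of all genes did). Those that also had a fold change of 1.5 numbered 0, against 1 with WAS replicate 2 alone and 0 to 3 with 1 library left out (3 without control replicate 3, 1 without WAS replicate 1, 1 without WAS replicate 2). The median log2 fold change of the pore-forming subunits was -0.12 without WAS replicate 1 and otherwise between -0.037 and 0.015 with 1 library left out. That of the auxiliary subunits was 0.09 with WAS replicate 2 alone and between -0.16 and 0.006 with 1 library left out.

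Among the subunits with a fold change given above, its sign turned on the log2 scale for Cacna1b (0.01), Cacna1e (0.005), Scn3a (0.037, from a value of 0.00) and Scn2b (0.004) with total-count scaling, for Cacnb1 (0.13), Scn2b (0.11), Scn4b (0.80), Cacna2d3 (0.32) and Scn3b (-0.046) with WAS replicate 2 alone, and with 1 library left out for Cacna1b (-0.094 to 0.025), Cacna1e (-0.146 to 0.036), Cacna1h (-0.188 to 0.006), Cacnb2 (-0.108 to 0.098), Scn3a (-0.084 to 0.081), Cacnb1 (-0.182 to 0.004), Scn2b (-0.112 to 0.033), Scn4b (-1.496 to 0.129) and Cacna2d3 (-0.461 to 0.008). The cause was not tested. With 1 library left out, values without a call also moved by over 1.5 times, with no change of sign, for Cacna1g (0.028 to 0.166), Cacna1s (0.298 to 1.85), Cacna2d1 (-0.157 to -0.057) and Scn1a (-0.183 to -0.007), and for Cacna1a (-0.244 to -0.032), Cacna2d2 (0.019 to 0.42), Cacnb4 (-0.386 to -0.177), Cacng5 (0.32 to 0.733) and Scn9a (0.173 to 0.915).

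Same-numbered libraries of the 2 groups had correlations of their deviations from the group means of 0.066, 0.085 and 0.087, each the best match of its library, as a hint from the data that the numbers may mark something shared. The labels do not say so. With the replicate block, 7 subunits had an unadjusted p under 0.05 (9.37% of all genes), the 5 of the fit without the block together with Cacnb4 (lower) and Cacng5 (higher), and 0 had an adjusted p under 0.05.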
